A study of Mus musculus with 6 samples.

Results

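The genes described here are 10 genes of the Tudor domain and piRNA machinery of germ cells, namely Tdrd1, Tdrd3, Tdrd5, Tdrd6, Tdrd7, Tdrd9, Tdrd12, Tdrkh, Mael and Ddx4. They were taken by symbol from the 19938 genes that had a probe set paired with them alone, and where a gene had several probe sets the brightest over all arrays was to be used. Each of the 10 had 1 probe set, so this choice had no effect on them. Expression was measured on 6 Affymetrix whole-transcript arrays in double-positive (DP) thymocytes, the T cell precursors that carry both CD4 and CD8. The 3 KO arrays came from mice labelled as Hdac3 knockouts, named LCK:Hdac3 KO in the series, and the 3 WT arrays from wild-type mice. All mice were C57BL/6, aged 3 weeks and untreated. RNA was pooled from 2 mice of each genotype, the 3 arrays of a group are described as biological replicates, and the labels do not tie mice to arrays, so p-values reflect array-to-array spread alone, which may be technical. The deleted part of Hdac3 and the promoter and recombinase behind the name LCK are not spelled out in the labels.

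Tudor domains are folds that bind methylated arginine or lysine. In germ cells, Tudor proteins bind the methylated arginines of PIWI proteins and gather them in germ granules, where PIWI proteins are loaded with piRNAs, the small RNAs that silence transposons. Most genes of this pathway are known for their expression in testis and ovary and for being kept silent in other tissues, in part by DNA methylation and by repressor complexes that contain E2F6 and MGA.

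The labelled groups were checked first. Hdac3, which encodes a histone deacetylase that works within NCoR and SMRT corepressor complexes, had log2 values of 8.28, 8.32 and 8.32 on the KO arrays and 9.40, 9.42 and 9.44 on the WT arrays (difference -1.12, SE 0.08, limma adjusted p = 3.5e-04). Of 7 measured DP markers, among them Cd4, Cd8a and Rag1, none passed the test (differences -0.07 to 0.22). The interquartile range of signal was 3.06 to 3.25 on the KO arrays and 3.29 to 3.49 on the WT arrays, so the median difference of all probe sets depended on signal: in 10 bins of equal size it lay between 0.16, in the bin with a median signal of 5.48, and -0.17, in the bin at 7.78. The 10 genes are therefore also set against the medians of their own bins, some of them only in the plot of differences with intervals. For other genes this is done where stated, and a difference printed alone still includes this shift. KO array 2 carried neutrophil transcripts: the summed signal of 12 neutrophil markers was 1013 there, against 301 and 302 on the other KO arrays and 261 to 292 on the WT arrays. In all, 1355 of 23410 tested probe sets passed an adjusted p of 0.05, which is 5.79%.

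Tdrd5 was far lower on every KO array than on any WT array. TDRD5 is a germ granule protein that in mice is needed for spermatid formation and transposon silencing. Its log2 values were 6.62, 6.23 and 6.51 on the KO arrays and 8.83, 8.86 and 8.57 on the WT arrays. The groups were separated by 1.96 on the log2 scale at their nearest arrays, while the SD within a group was 0.20 in KO and 0.16 in WT (n = 3 each). The means were 6.45 in KO and 8.75 in WT, a difference of -2.30 (SE 0.13). KO arrays thus held 20.3% of the signal seen in WT (95% interval 16.7% to 24.7%), a 4.93-fold difference. It was the third largest fall among all 19938 genes, which was known when the 10 genes were put together, so it is given as a description and no p is attached to it. In these bulk samples fewer cells that express Tdrd5 and less RNA per cell cannot be told apart.

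**Figure D1:**
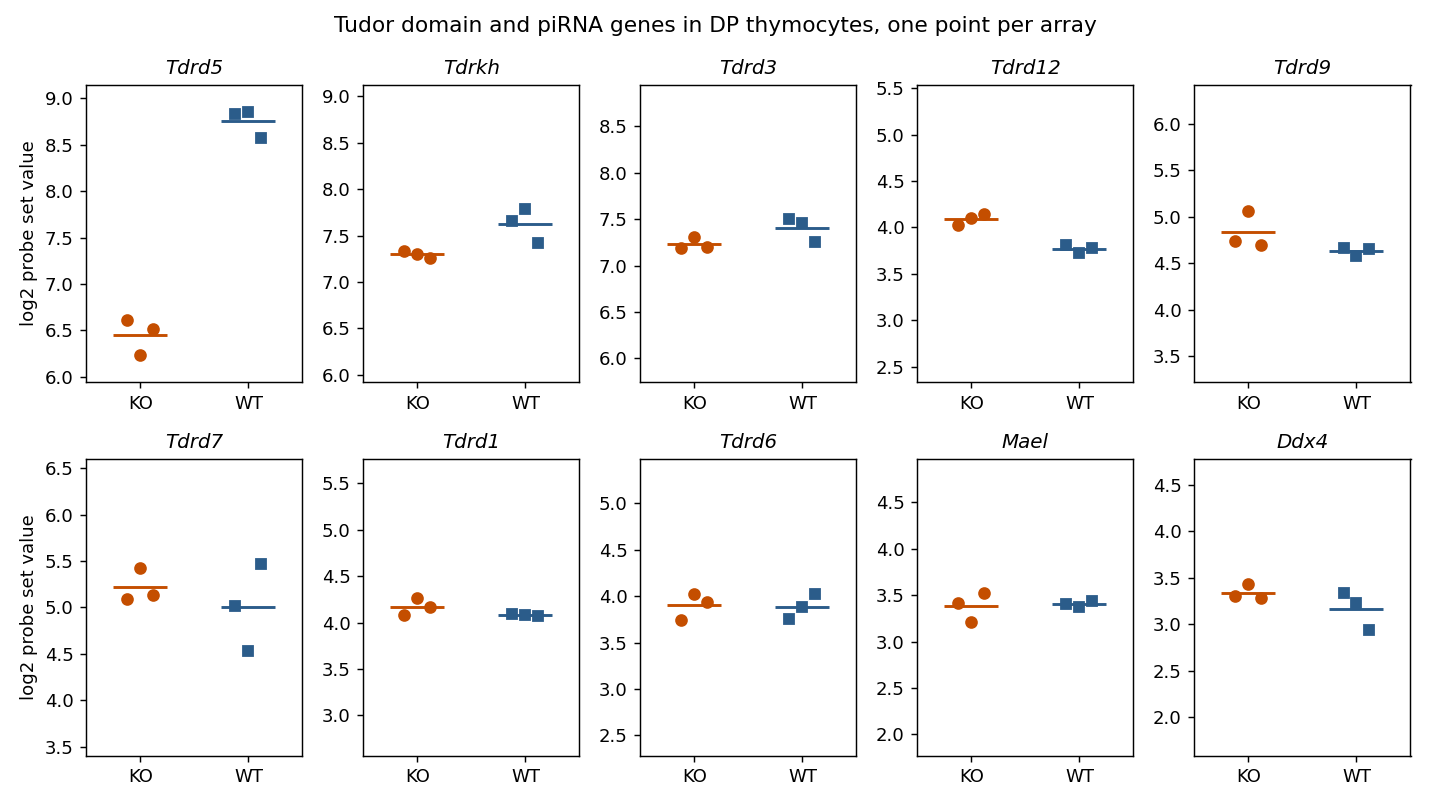
Log2 probe set values of the 10 genes on each array, KO (circles, left) and WT (squares, right), with the group mean as a line. Every panel spans the same number of log2 units and has its own position on the axis, since probe sets of different genes differ in brightness for the same amount of RNA. Tdrd5 is the gene with a wide gap, from 6.23 to 6.62 in KO and from 8.57 to 8.86 in WT.

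The Tdrd5 difference stayed near its size under each scaling and with each array left out. Probe sets in its signal bin had a median difference of -0.17, which leaves -2.13 for Tdrd5 beyond it. After quantile normalization the difference was -2.24. With 1 array left out it ranged from -2.39 without WT array 3 to -2.19 without KO array 2, the array with the neutrophil transcripts. On the log2 scale the Tdrd5 difference was 2.06 times that of Hdac3 itself, and these are differences of separate probe sets, each against its own WT level.

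The signal of Tdrd5 in DP thymocytes stood above that of genes not known to be used there. No detection calls were analysed, so 1023 probe sets of olfactory receptor genes served as a guide to low signal, with a 6-array mean of 3.51 at their median and 5.17 at their 95th percentile. None of the 1023 reached the Tdrd5 mean on the WT arrays, and 6 of them reached its mean on the KO arrays. The comparison is rough, because probes differ in affinity.

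Cells other than DP thymocytes were looked for with marker lists. Thymic epithelium, whose medullary cells are known to express many tissue-restricted genes, was followed with 8 markers of its cortical and medullary cells. Their summed signal was 412 to 432 on the KO arrays and 451 to 484 on the WT arrays, but 6 of the 8 single differences were above 0 and the lower sum rested on Ly75, an endocytic receptor gene (difference -0.51, limma adjusted p = 0.068). Without Ly75 the sums overlapped, at 274 to 285 in KO and 241 to 283 in WT. Of the 8 markers 1 passed the test, the epithelial adhesion gene Epcam (difference -0.37, limma adjusted p = 0.044). Epcam also passed after quantile normalization (difference -0.49, limma adjusted p = 0.018). Its mean signal, 5.09, was below the 95th percentile of the olfactory receptor genes, 5.17, as were those of some other markers. Aire, which drives tissue-restricted expression in medullary cells, had log2 values of 5.56, 5.94 and 5.89 on the KO arrays and 5.65, 5.44 and 5.68 on the WT arrays (difference 0.21, limma adjusted p = 0.32). The part of these cells in the Tdrd5 difference was not tested.

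Summed signals of 7 B cell markers were 285 to 311 in KO and 288 to 333 in WT, and those of 9 macrophage markers 325 to 426 in KO and 295 to 336 in WT, with 0 markers passing in either list. The macrophage sum of 426 was that of KO array 2, the array with the neutrophil transcripts, beside 327 and 325 on the other KO arrays. Lyz2 of that list was at 6.65 on KO array 2 and at 4.54 and 4.71 on the other KO arrays. Those of 6 erythroid markers were 212 to 252 in KO and 172 to 216 in WT, and the erythroid factor gene Klf1 passed as higher (difference 0.44, limma adjusted p = 0.047). Summed signals of 8 markers of the earlier double-negative stage were 542 to 655 in KO and 345 to 418 in WT. That separation rested on Il2ra, the interleukin-2 receptor alpha chain (difference 2.28, limma adjusted p = 0.0033), since without it the sums were 351 to 382 in KO and 312 to 378 in WT and overlapped. Cd44, an adhesion receptor of the same list, passed in the other direction (difference -0.66, limma adjusted p = 0.0034). The other 7 differences of that list, with that of Il2ra, were above 0. For 6 markers of mature single-positive cells the sums were 470 to 587 in KO and 425 to 497 in WT, while Il7r, the interleukin-7 receptor alpha chain, passed as lower (difference -1.19, limma adjusted p = 0.0056). Without Il7r these sums were 443 to 567 in KO and 385 to 439 in WT, so they no longer overlapped and were higher on every KO array. Klf1, Cd44 and Il7r had mean signals of 4.43, 4.65 and 5.09, below the 95th percentile of the olfactory receptor genes. After quantile normalization Klf1 did not pass (limma adjusted p = 0.080), while Il2ra, Cd44 and Il7r did. Lyl1, a double-negative marker that had not passed on the deposited values (difference 0.35, limma adjusted p = 0.063), then passed as higher (difference 0.40, limma adjusted p = 0.047). Mean signals did not exceed that percentile for 6 of 7 B cell, 5 of 9 macrophage and 3 of 6 erythroid markers. The same held for 9 of 12 neutrophil, 2 of 8 double-negative and 1 of 6 mature markers. The sums without 1 marker were chosen after the values were seen, and the part of any of these cells in the differences was not tested.

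None of the other 9 genes differed by an amount near that of Tdrd5. None of them passed an adjusted p of 0.05 with limma, in either direction, where 4.04% of all probe sets passed as lower and 1.75% as higher. At an unadjusted p under 0.05 there were 1 lower gene, Tdrkh, and 1 higher gene, Tdrd12, where 25.2% of all probe sets reached that level. The median difference of the 9 was 0.09, beside 0.02 over all probe sets. KO and WT values were fully separated for 3 of the 9, namely Tdrkh, Tdrd12 and Tdrd9, where 30.0% of all probe sets were. The 95% intervals of the 9 differences all lay between -0.56 and 0.67, so none of them held a fall of the size measured for Tdrd5. For 7 of the 9 this says little, because their WT means, from 3.17 for Ddx4 to 5.01 for Tdrd7, left little or no room for such a fall. The lowest value on any array was 1.94 to 2.03. Only Tdrkh and Tdrd3 were bright enough to show it clearly.

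Tdrkh and Tdrd3 were the other members with a mean signal above the 95th percentile of the olfactory receptor genes. TDRKH is a mitochondrial Tudor protein that in mouse germ cells takes part in trimming piRNAs to their final length. Its log2 values were 7.34, 7.30 and 7.26 on the KO arrays and 7.66, 7.78 and 7.42 on the WT arrays. KO was the lower group on every array, by 0.32 (SE 0.11, 95% interval -0.56 to -0.08, limma adjusted p = 0.11). The median of its signal bin was -0.17, and after quantile normalization the difference was -0.19 (limma adjusted p = 0.32). Tdrkh passed the test without WT array 3 (difference -0.42, limma adjusted p = 0.037) and with array weights, and the adjusted p over all alternatives ranged from 0.037 to 0.42.

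TDRD3 is widely expressed, and it is known as the partner of topoisomerase 3-beta and as a reader of methylated arginine on histones. Tdrd3 had log2 values of 7.19, 7.30 and 7.20 on the KO arrays and 7.50, 7.46 and 7.25 on the WT arrays. The groups overlapped, since the highest KO array lay above the lowest WT array. The difference was -0.17 (SE 0.10, limma adjusted p = 0.31), next to a median of -0.14 in its signal bin.

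**Figure D2:**
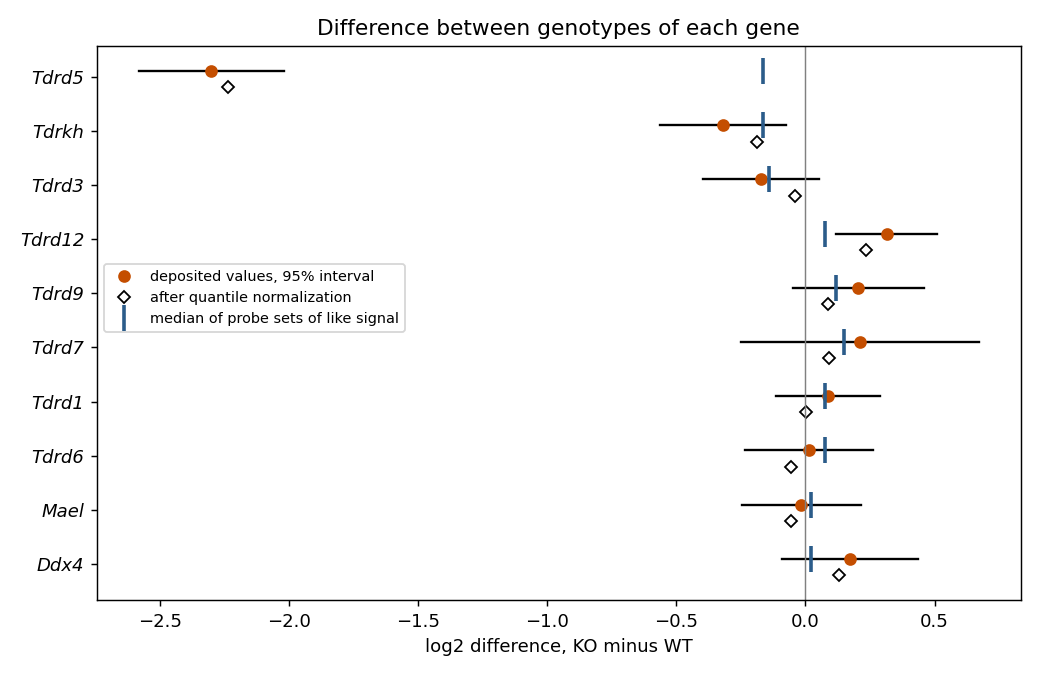
Log2 difference, KO minus WT, of each gene with its 95% interval from limma (circles and lines), the median difference of probe sets of like signal (vertical ticks) and the difference after quantile normalization (diamonds). Tdrd5 stands at -2.30, while the other 9 lie between -0.32 and 0.31 and the intervals of 8 of these include the tick, the exception being Tdrd12.

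The remaining 7 genes had mean signals that did not exceed the 95th percentile of the olfactory receptor genes, so the arrays give little ground to say that DP thymocytes express them. Among the helicases, TDRD9 is known to act with a nuclear PIWI protein in transposon silencing in mouse testis. Tdrd9 had log2 values of 4.74, 5.06 and 4.69 on the KO arrays and 4.66, 4.58 and 4.65 on the WT arrays (difference 0.20, SE 0.11, limma adjusted p = 0.29). The lowest KO array was above the highest WT array by a small margin, and the median of its signal bin was 0.12. TDRD12, a helicase-like protein of piRNA biogenesis, was encoded by a gene at 4.02, 4.10 and 4.14 on the KO arrays and 3.81, 3.73 and 3.77 on the WT arrays. Tdrd12 was higher on every KO array, by 0.31 (SE 0.09, limma adjusted p = 0.068), and by 0.24 beyond the median of its bin. It passed the test only with array weights (difference 0.33, limma adjusted p = 0.041), and over all alternatives its adjusted p ranged from 0.041 to 0.28. Ddx4 encodes the Vasa helicase, a widely used marker of germ cells. Its log2 values were 3.30, 3.43 and 3.28 on the KO arrays and 3.34, 3.22 and 2.94 on the WT arrays (difference 0.17, SE 0.12, limma adjusted p = 0.38), with overlapping groups.

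Genes of the granule scaffolds and Mael did not pass the test. TDRD1 binds a PIWI protein of fetal germ cells, and Tdrd1 was at 4.08, 4.26 and 4.16 on the KO arrays and 4.09, 4.08 and 4.07 on the WT arrays (difference 0.09, SE 0.09, limma adjusted p = 0.57). TDRD6 and TDRD7 build the chromatoid body of spermatids. Tdrd6 was at 3.74, 4.02 and 3.94 on the KO arrays and 3.76, 3.88 and 4.02 on the WT arrays (difference 0.01, limma adjusted p = 0.95). Tdrd7 had the widest spread of the 10, with 5.09, 5.43 and 5.13 on the KO arrays and 5.01, 4.53 and 5.47 on the WT arrays (difference 0.21, SE 0.21, limma adjusted p = 0.55). Mael encodes Maelstrom, a germ granule protein of piRNA production. It was at 3.42, 3.22 and 3.53 on the KO arrays and 3.40, 3.37 and 3.44 on the WT arrays (difference -0.02, SE 0.10, limma adjusted p = 0.93). In all 4 genes the groups overlapped. The sign of the Tdrd1 and Tdrd6 differences turned with the scaling of the arrays, that of Mael with array weights, and that of Mael, Tdrd6 and Tdrd7 with the array left out.

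**Figure D3:**
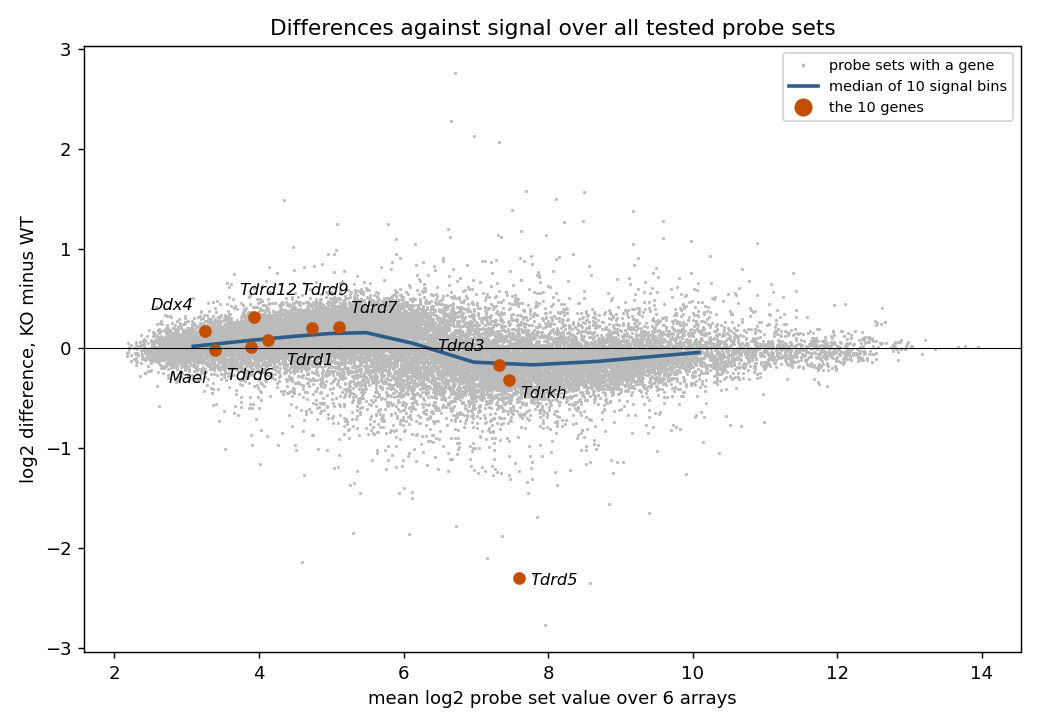
Log2 difference, KO minus WT, against the mean log2 value over 6 arrays for all 23410 tested probe sets (grey), the median of 10 signal bins (line) and the 10 genes (large points). Tdrd5 lies among the lowest points at -2.30, and the other 9 genes lie within 0.24 of the median of their own bin.

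The promoter windows of these genes were read to see what they share. The sequences are those of RefSeq on mouse build GRCm38.p6, from 250 bases before to 50 bases after an annotated start, and 9 of the 10 genes, all but Tdrd6, matched the table with 14 windows in all. The motifs searched were TCCCGC on both strands, the core of the site bound by E2F6, and CACGTG, the E-box that MGA and MAX can bind, which reads the same on both strands. TCCCGC or its complement was found in 20.0% of the 32851 windows of the table and CACGTG in 7.15%. Windows of Tdrd5, Tdrd3, Mael and Ddx4 held TCCCGC, and windows of Tdrd1, Tdrd9, Mael and Ddx4 held CACGTG. These matches are descriptions of sequence and not sites of binding. Printed below, with the motifs in capitals, are Tdrd5, the gene that was lower in KO, Mei4 and Dmc1, the meiosis genes described further on that also fell, and Mael and Ddx4, the genes with both motifs.

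Tdrd5, chr1:156303299-156303598, minus strand: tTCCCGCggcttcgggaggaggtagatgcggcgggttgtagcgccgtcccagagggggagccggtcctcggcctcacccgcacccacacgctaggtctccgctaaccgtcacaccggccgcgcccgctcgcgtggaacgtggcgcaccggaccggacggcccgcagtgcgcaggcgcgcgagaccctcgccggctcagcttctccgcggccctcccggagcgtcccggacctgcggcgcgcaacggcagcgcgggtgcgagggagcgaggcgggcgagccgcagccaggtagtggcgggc
Mei4, chr9:81863420-81863719, plus strand: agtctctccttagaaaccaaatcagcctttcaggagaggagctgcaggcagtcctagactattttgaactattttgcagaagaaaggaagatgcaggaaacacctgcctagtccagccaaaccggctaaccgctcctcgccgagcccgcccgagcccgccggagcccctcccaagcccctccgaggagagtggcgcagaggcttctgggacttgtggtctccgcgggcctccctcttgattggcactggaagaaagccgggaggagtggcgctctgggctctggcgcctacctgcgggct
Dmc1, chr15:79605060-79605359, minus strand: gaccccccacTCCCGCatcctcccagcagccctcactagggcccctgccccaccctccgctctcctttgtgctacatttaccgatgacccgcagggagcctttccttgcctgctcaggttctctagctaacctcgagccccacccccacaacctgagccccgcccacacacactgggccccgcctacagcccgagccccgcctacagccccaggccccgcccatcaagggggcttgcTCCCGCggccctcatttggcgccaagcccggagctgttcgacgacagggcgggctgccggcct
Mael, chr1:166238695-166238994, minus strand: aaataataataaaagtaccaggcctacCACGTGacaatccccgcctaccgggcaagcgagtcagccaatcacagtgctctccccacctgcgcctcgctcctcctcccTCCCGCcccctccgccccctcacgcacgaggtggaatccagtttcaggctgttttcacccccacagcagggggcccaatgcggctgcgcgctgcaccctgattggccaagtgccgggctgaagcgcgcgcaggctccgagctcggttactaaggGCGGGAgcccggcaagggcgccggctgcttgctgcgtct
Ddx4, chr13:112652261-112652560, minus strand: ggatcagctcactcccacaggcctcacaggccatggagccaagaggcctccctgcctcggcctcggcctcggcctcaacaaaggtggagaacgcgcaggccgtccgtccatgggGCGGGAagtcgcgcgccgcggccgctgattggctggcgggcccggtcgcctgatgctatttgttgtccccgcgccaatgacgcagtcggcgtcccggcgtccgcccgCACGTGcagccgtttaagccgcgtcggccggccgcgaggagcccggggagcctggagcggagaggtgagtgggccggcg

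The Mei4 window held neither motif, and that of Dmc1 held 2 matches to TCCCGC. The Tdrd5 window is rich in CpG, the dinucleotide that DNA methylation acts on in mammals. It held 48 CpG in 300 bases, more than 98.8% of all windows, whose median was 7. The Ddx4 window held 38 CpG, that of Mael 24, that of Tdrkh 25, that of Tdrd3 43 and that of Dmc1 18. Counts were lower for Tdrd9, at 10, for Tdrd12, at 11 and 9 in its windows, and for Mei4, at 16. The windows of Tdrd1 held 20, 25 and 3 CpG and those of Tdrd7 held 4, 32 and 32. The TCCCGC of Tdrd5 lies at the far end of the window, 249 bases before the start. The Tdrd3 window held 2 matches to TCCCGC. Whether motifs or CpG content bear on the differences between KO and WT was not tested.

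The measured genes beside Tdrd5 on chromosome 1 had smaller differences, and none passed the test. In the RefSeq gene order the nearest measured genes toward lower coordinates were Fam163a and Tor1aip2, and those toward higher coordinates were Abl2 and Tor3a, with genes in between that were not analysed here. Fam163a, a membrane protein gene, was at 4.19, 4.12 and 4.39 on the KO arrays and 4.11, 4.01 and 4.17 on the WT arrays (difference 0.14, limma adjusted p = 0.42). Tor1aip2, of the nuclear envelope, differed by 0.08 (SE 0.10, limma adjusted p = 0.62). The kinase gene Abl2 differed by -0.41 (SE 0.12, limma adjusted p = 0.082) and Tor3a, a torsin ATPase, by -0.27 (SE 0.09, limma adjusted p = 0.11). For Abl2 and Tor3a the KO arrays lay below the WT arrays without overlap, as was so in either direction for 30.0% of all probe sets.

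The genes with profiles most like that of Tdrd5 over the 6 arrays came from outside the germ line. After each profile was centred on its own mean, the smallest root mean square distances were 0.11 for Nrp1, a semaphorin and VEGF coreceptor, 0.18 for Jup, the junction protein plakoglobin, 0.23 for the angiopoietin gene Angpt1, 0.23 for Il17rb, a receptor chain for interleukin-25, and 0.25 for Papss2, which makes the sulfate donor of the cell. Nrp1 had log2 values of 6.32, 5.88 and 6.12 on the KO arrays and 8.38, 8.26 and 7.99 on the WT arrays. KO array 2, the array with the neutrophil transcripts, was the lowest for Tdrd5 and for each of these selected genes. The differences were -2.10 for Nrp1, -2.27 for Jup, -2.14 for Angpt1, -1.88 for Il17rb and -1.86 for Papss2, which the measure of likeness selects for.

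**Figure D4:**
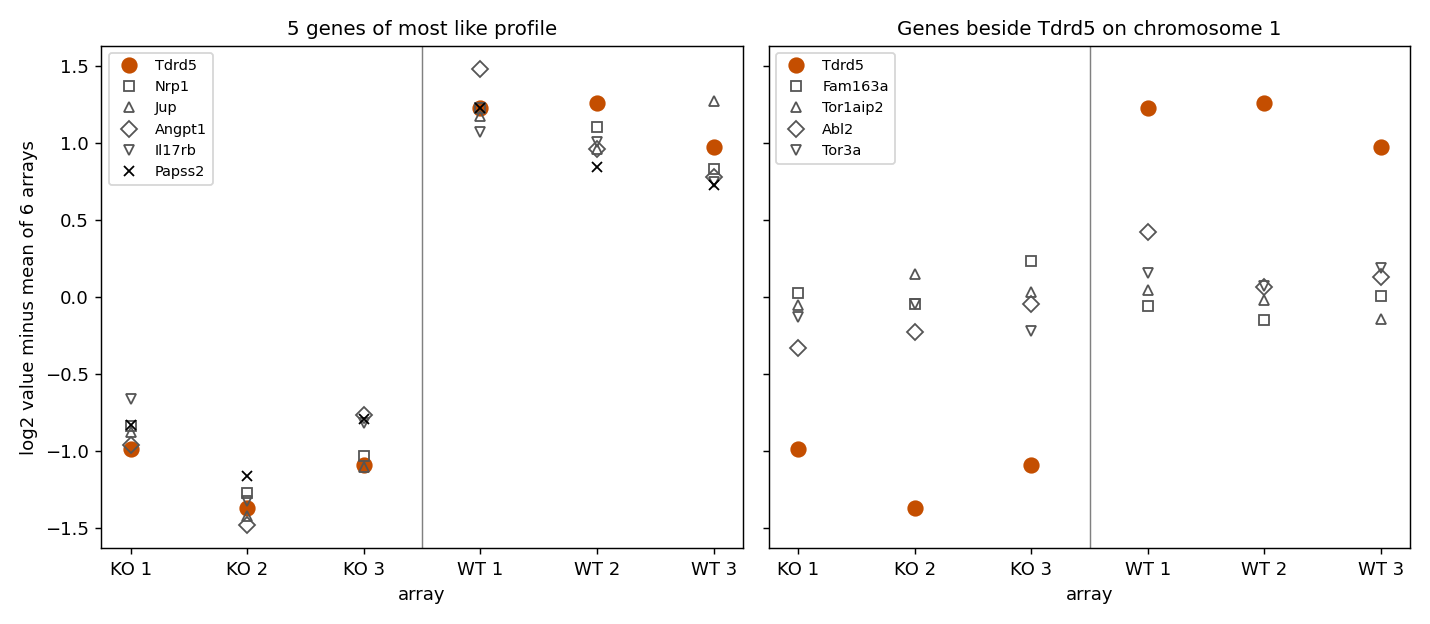
Log2 values minus the mean of 6 arrays for Tdrd5 (filled circles) beside the 5 genes with the most like profile (left) and beside its nearest measured neighbours on chromosome 1 (right), KO arrays left and WT arrays right in each panel. The selected genes follow Tdrd5 by choice, while the neighbours stay within 0.5 of their own mean.

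Other genes of the piRNA pathway gave 1 call. Of 21 listed genes 18 were measured and Fkbp6, Btbd18 and Spocd1 were not analysed here. Mov10l1, the helicase that starts the processing of piRNA precursors in mouse testis, rose, 0 genes fell and 17 did not pass, beside 1.75% higher and 4.04% lower over all probe sets. Mov10l1 had log2 values of 4.61, 4.51 and 4.42 on the KO arrays and 4.01, 4.25 and 4.06 on the WT arrays (difference 0.41, SE 0.10, limma adjusted p = 0.049). Mov10l1 was higher by 0.29 beyond the median of its signal bin. Its mean signal was below the 95th percentile of the olfactory receptor genes, and it passed in 0 of the 6 fits with 1 array left out (limma adjusted p 0.065 to 0.15). The PIWI genes did not pass: Piwil2 was at 5.38, 5.48 and 5.62 on the KO arrays and 5.24, 5.40 and 5.32 on the WT arrays (difference 0.17, limma adjusted p = 0.30). The median difference of the 18 genes was 0.12, beside 0.10 for the median of their signal bins, and 15 of the 18 had a mean signal no higher than the 95th percentile of the olfactory receptor genes. Mybl1, the MYB factor that drives piRNA genes in meiosis, chosen after its values were seen, was at 5.76, 5.84 and 5.42 on the KO arrays and 6.04, 6.56 and 6.03 on the WT arrays (difference -0.54, SE 0.16, limma adjusted p = 0.084). Mybl1 passed after median centring, with array weights and with the replicate block (limma adjusted p = 0.034, 0.033 and 0.038).

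Among genes of meiosis and germ cells, Mei4 and Dmc1 fell. Of 30 listed genes 29 were measured, 0 rose, 2 fell and 27 did not pass, beside 4.04% of all probe sets that passed as lower. Mei4, needed for meiotic DNA breaks in mice, had log2 values of 5.28, 4.91 and 5.03 on the KO arrays and 5.94, 5.97 and 5.90 on the WT arrays. Every KO array was below every WT array (difference -0.86, SE 0.11, limma adjusted p = 0.0033), against a median of 0.16 in its signal bin. Dmc1, the meiotic recombinase, was at 4.55, 4.54 and 4.47 on the KO arrays and 5.02, 5.21 and 5.27 on the WT arrays (difference -0.65, SE 0.10, limma adjusted p = 0.0073), without overlap. Beyond the median of its signal bin, 0.15, the Dmc1 difference was -0.79. Mei4 and Dmc1 both passed in all 6 fits with 1 array left out (Mei4 -0.96 to -0.78, Dmc1 -0.72 to -0.59). The mean of Dmc1, 4.84, is below the 95th percentile of the olfactory receptor genes, and that of Mei4, 5.50, is above it.

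The median difference of the 29 genes was 0.05, beside 0.08 for the median of their bins, and 19 of the 29 had a mean signal no higher than the 95th percentile of the olfactory receptor genes. Spo11, the enzyme that cuts DNA in meiosis, had a mean signal of 9.02 over the 6 arrays and was chosen after its values were seen. It was at 9.12, 9.06 and 9.31 on the KO arrays and 8.95, 8.90 and 8.75 on the WT arrays. KO was higher on every array, by 0.30 (SE 0.10, limma adjusted p = 0.11), where the median of its signal bin was -0.13. After quantile and cyclic loess normalization it passed (difference 0.40 and 0.41, limma adjusted p = 0.046 and 0.041), and with 1 array left out it did not (limma adjusted p 0.16 to 0.30).

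Tudor domain proteins that work outside germ granules were all measured, 20 of 20, and all 20 were brighter than the 95th percentile of the olfactory receptor genes. Of these 0 rose, 2 fell and 18 did not pass, where 1.75% of all probe sets passed as higher and 4.04% as lower. The median difference was -0.11 beside -0.13 for the median of their signal bins. Phf19, a Polycomb subunit that reads methylated histone, was at 6.70, 6.92 and 6.96 on the KO arrays and 7.17, 7.42 and 7.41 on the WT arrays (difference -0.47, SE 0.11, limma adjusted p = 0.041). Trp53bp1, the DNA damage protein 53BP1, was at 7.69, 7.60 and 7.60 on the KO arrays and 8.15, 8.19 and 7.87 on the WT arrays (difference -0.44, SE 0.11, limma adjusted p = 0.045). Beyond the medians of their signal bins the differences were -0.33 for Phf19 and -0.28 for Trp53bp1. Neither gene passed after quantile normalization (limma adjusted p = 0.13 and 0.097). Each passed in 1 of the 6 fits with 1 array left out, Phf19 without WT array 1 and Trp53bp1 without WT array 3.

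Genes that keep germline genes silent in other tissues were measured as well, 18 of 18. Of these 0 rose, 1 fell and 17 did not pass, where 1.75% of all probe sets passed as higher and 4.04% as lower. The median difference was -0.15 beside -0.13 for the median of their signal bins. Taken gene by gene beyond their own bins, the median was -0.08. It was 0.001, 0.007 and 0.009 in the piRNA, other Tudor and germ cell lists. After quantile normalization the median of the silencer list was -0.08. Its differences were below 0 for 15 genes and above 0 for 3. At an unadjusted limma p under 0.05 there were 6 lower and 0 higher genes, where 25.2% of all probe sets reached that level in either direction. The other Tudor list was much the same, with 15 differences below 0 and 5 above, and 5 lower and 0 higher genes at that level. Germ cell genes had 3 lower and 6 higher at that level, and the piRNA list 1 lower and 1 higher. A shift of any of these lists as a set was not tested. Dnmt3a, a methyltransferase that lays down new DNA methylation, was at 8.30, 8.34 and 8.31 on the KO arrays and 8.83, 8.69 and 8.76 on the WT arrays (difference -0.44, SE 0.09, limma adjusted p = 0.022). The Dnmt3a difference was -0.31 beyond the median of its signal bin and -0.32 after quantile normalization (limma adjusted p = 0.078). Dnmt3a passed in 1 of the 6 fits with 1 array left out, that without WT array 3. The uncalled genes of the list, among them E2f6, Mga, Max, Dnmt1 and Trim28, had differences from -0.32 to 0.19.

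**Figure D5:**
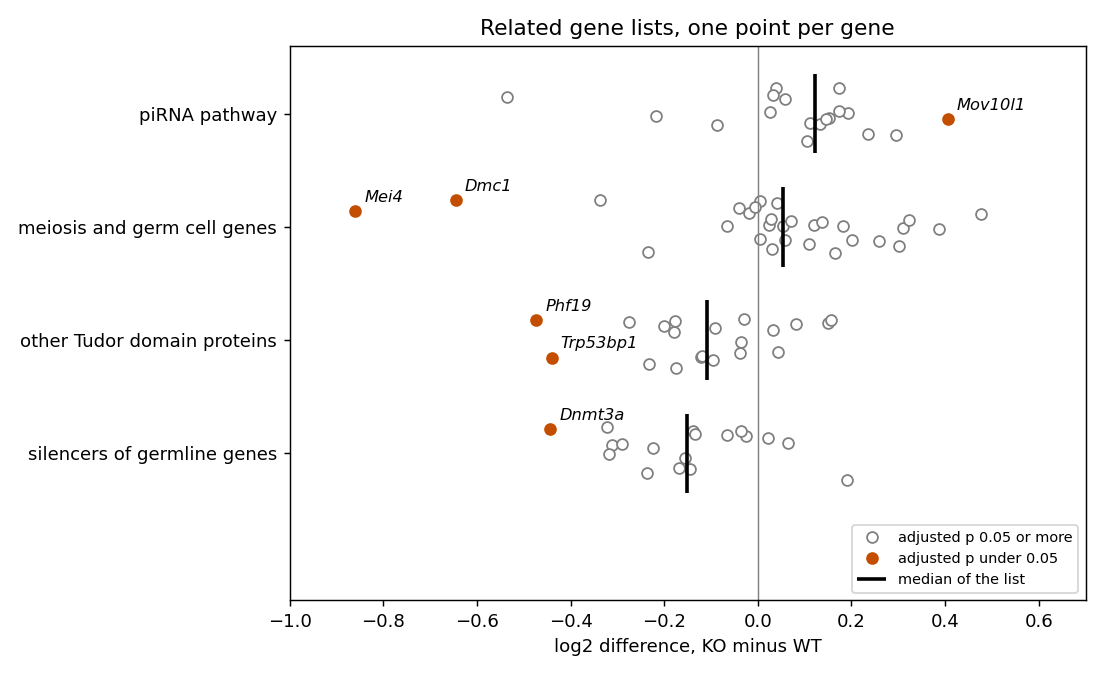
Log2 difference, KO minus WT, of the measured genes in 4 related lists, 1 point per gene, with genes that passed an adjusted p of 0.05 filled and named and the median of each list as a line. Mei4 and Dmc1 stand lowest at -0.86 and -0.65, and the medians of the lists lie between -0.15 and 0.12.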

How the data were processed

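Values are the log2 probe set values that the authors deposited, 1 column per array; the log2 scale was read from their range. Per the labels' protocols, total RNA was labelled with biotin for an Affymetrix whole-transcript array. The sources used here do not name the background correction, normalization or probe set summary. The number of arrays limits the precision. Groups and replicate numbers came from the titles. Probe sets were named through GEO's platform annotation: 21789 of 28853 had 1 symbol, 1621 several and 5443 none.

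The 23410 probe sets with a gene were fitted with limma 3.58.1 (lmFit and eBayes, R 4.3.3) as 2 group means, KO minus WT, with two-sided p-values adjusted by Benjamini-Hochberg over all of them. An exact test of 3 against 3 arrays cannot go below 0.1 and was not run. The code was tested on simulated data.

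The genes and lists were chosen with earlier results of these data known. Named were Hdac3, the 10 genes, called list members, the 5 profiles nearest to Tdrd5 and its 2 nearest measured neighbours on each side; others are said to be chosen after their values were seen. Piwil2, Aire, Lyl1 and the silencers named together were also chosen after their values were seen.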

Additional observations from a re-analysis of the deposited data

How the results depend on the processing

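Over 16 alternatives the Tdrd5 difference ranged from -2.40 to -2.13 and Hdac3 passed in all 16 (limma adjusted p up to 0.0042). Dmc1 and Mei4 kept their calls in every alternative that tested them. Both were left out with the dim probe sets, which leaves 0 lower calls in that list, and so were 7 of the 10 genes; Tdrd5, Tdrkh and Tdrd3 were kept.

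The count of all calls was 1355 and became 2060 after median centring, 2285 with array weights, 437 after quantile normalization without KO array 2, and 474 to 1946 with 1 array left out (without KO arrays 1, 2 and 3 it was 826, 474 and 489, and without WT arrays 1 and 2 it was 517 and 505). Of all calls 30.2% were higher. Median centring shifts every difference down, the median of all probe sets lying at -0.08 against 0.02 as deposited, and left 197 higher and 1863 lower calls (9.56% higher).

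Besides Tdrd5, array weights called 1 of the genes higher (Tdrd12) and 1 lower (Tdrkh), and leaving out 1 array gave 0 to 1 lower calls. The single higher call of the piRNA list, Mov10l1, became 0 after quantile normalization, median centring, cyclic loess and quantile normalization without KO array 2. It was also lost with all probe sets tested, array weights and the replicate block, and whichever array was left out. With dim probe sets left out Mov10l1 was removed and not tested, which leaves 0 higher calls. That list had 1 lower call, Mybl1, with median centring, array weights and the replicate block. The 2 lower calls among other Tudor proteins became 1 with all probe sets tested and with the replicate block, 0 after quantile and cyclic loess normalization and after quantile normalization without KO array 2, and 0 to 1 with 1 array left out. Germ cell genes had 1 higher call, Spo11, after quantile and cyclic loess normalization, and 0 to 1 with 1 array left out, Mei1 without KO array 1. The silencer list had 0 lower calls after quantile and cyclic loess normalization and after quantile normalization without KO array 2, 2 with array weights, and 0 to 2 with 1 array left out, Pcgf6 being the second in both. Apart from the removal of dim probe sets, the cause of these losses was not tested.

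Differences that changed sign were uncalled. Tdrd1 was at -0.014 after median centring, -0.0075 after cyclic loess and -0.026 after quantile normalization without KO array 2. Tdrd6 was at -0.057 after quantile normalization, -0.089 after median centring, -0.066 after cyclic loess, -0.096 after quantile normalization without KO array 2 and -0.052 to 0.093 with 1 array left out. Mael was at 0.033 with array weights, 0.032 after quantile normalization without KO array 2 and -0.087 to 0.068 with 1 array left out, and Tdrd7, at 0.21 over all arrays, at -0.026 to 0.44 with 1 array left out.

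With the replicate number as a block the Tdrd5 difference was -2.30, Mov10l1 had a limma adjusted p of 0.067 and Trp53bp1 of 0.052. Deviations of same-numbered arrays from their group means correlated at 0.25, -0.07 and -0.03, and those of other pairs at -0.34 to 0.32. With 3 arrays in a group, these correlations cannot tell whether same-numbered arrays share more than a number. Quantile normalization without KO array 2 was chosen after seeing the data.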
